A study of Mus musculus with 47 samples.

Results

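The data described here are the RNA levels of 6 genes for inhibitors of cyclin-dependent kinases (CDKs): the INK4 genes Cdkn2a, Cdkn2b, Cdkn2c and Cdkn2d and the CIP/KIP genes Cdkn1b and Cdkn1c. Members were the probe sets whose platform gene symbol was exactly one of these names, which gave 7 probe sets for 6 genes out of 18193 named genes. Each gene had 1 probe set except Cdkn1b, which had 2. The RNA came from mouse Eµ-Myc B-cell lymphomas, in which Myc is expressed in the B lineage, and was measured on 47 Affymetrix arrays. All cultures carried a Bcl2 retrovirus that blocks apoptosis and grew on irradiated (20 Gy) NIH 3T3 feeder cells, a mouse fibroblast line known to lack the Cdkn2a locus.

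The groups were 5 Suv39h1- lymphomas treated with Adriamycin (ADR, a DNA-damaging drug, at 0.05 µg/ml for 5 days), the same 5 left untreated (native), 14 Suv39h1 WT lymphomas with ADR and the same 14 native, and 3 Suv39h1ER cultures (Suv39h1- lymphoma cells that also carry Suv39h1ER), each with ADR plus 4OHT, with ADR alone, and native. Suv39h1 is a methyltransferase of histone H3 lysine 9, and 4OHT is a ligand used to switch on proteins fused to the oestrogen receptor. The labels call the ADR-treated WT and the ADR 4OHT arrays senescent and all others non-senescent. Animal age, sex and strain were not given in the sources used here, and the level of Suv39h1 was not analysed here, which leaves the genotypes as labelled.

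CDK inhibitors hold back the kinases that drive cells from G1 into S phase. Cdkn2a encodes 2 unrelated proteins from separate first exons: p16Ink4a, which binds Cdk4 and Cdk6, and Arf, which binds Mdm2 and so stabilizes p53. Cdkn2b (p15), Cdkn2c (p18) and Cdkn2d (p19) also bind Cdk4 and Cdk6, while Cdkn1b (p27) and Cdkn1c (p57) bind cyclin-CDK complexes. In Eµ-Myc lymphomas, loss of Cdkn2a is a well-known alternative to loss of p53, and p16 and p15 are common marks of senescent cells.

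On mouse chromosome 4, RefSeq (GRCm38.p6) places Cdkn2a at chr4:89274473-89294619 and Cdkn2b next to it at chr4:89306289-89311032. The 2 Cdkn2a start sites lie 12427 bases apart, and the upstream one, that of Arf, lies 11670 bases from Cdkn2b. Windows from 250 bases before to 50 after the start sites of these neighbours are shown because their RNA differed most between lymphomas, together with that of Cdkn2d, which had the largest change under ADR in WT lymphomas. All 4 are on the minus strand, and capitals mark a match to an E2F motif (TTTCCCGC, TTTGGCGC, TTTCGCGC or TTTGCCGC, either strand).
Cdkn2a, Arf start, chr4:89294570-89294869: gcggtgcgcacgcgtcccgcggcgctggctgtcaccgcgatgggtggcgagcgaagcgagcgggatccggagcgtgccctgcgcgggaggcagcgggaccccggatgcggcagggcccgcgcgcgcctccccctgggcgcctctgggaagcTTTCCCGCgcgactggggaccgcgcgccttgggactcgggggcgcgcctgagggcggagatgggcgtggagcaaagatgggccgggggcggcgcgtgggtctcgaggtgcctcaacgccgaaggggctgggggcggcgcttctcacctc
Cdkn2a, Ink4a start, chr4:89282143-89282442: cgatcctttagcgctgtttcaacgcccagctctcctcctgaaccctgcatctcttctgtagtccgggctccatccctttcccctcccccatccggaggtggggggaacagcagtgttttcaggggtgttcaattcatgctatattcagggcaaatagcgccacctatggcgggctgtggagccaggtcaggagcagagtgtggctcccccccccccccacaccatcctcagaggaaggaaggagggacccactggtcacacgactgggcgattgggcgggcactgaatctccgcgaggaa
Cdkn2b, chr4:89310983-89311282: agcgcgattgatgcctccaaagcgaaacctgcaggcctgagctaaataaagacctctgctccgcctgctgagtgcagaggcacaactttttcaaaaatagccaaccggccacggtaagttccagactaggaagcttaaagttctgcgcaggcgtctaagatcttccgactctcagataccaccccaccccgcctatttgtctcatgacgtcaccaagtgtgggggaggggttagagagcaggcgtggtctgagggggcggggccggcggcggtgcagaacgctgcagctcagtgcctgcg
Cdkn2d, chr9:21291160-21291459: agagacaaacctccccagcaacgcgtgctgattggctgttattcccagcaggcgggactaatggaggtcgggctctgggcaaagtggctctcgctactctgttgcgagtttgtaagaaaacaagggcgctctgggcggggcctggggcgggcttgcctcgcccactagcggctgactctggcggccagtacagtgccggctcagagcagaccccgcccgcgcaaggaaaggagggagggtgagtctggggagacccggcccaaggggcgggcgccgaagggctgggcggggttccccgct
The Arf window held 1 E2F match, 99 bases before the start site, and the other 3 held none; 2.26% of the 32851 RefSeq windows of this length held at least 1. The Arf window had 45 CpG dinucleotides, against 12 in the Ink4a window, 18 in the Cdkn2b window and 22 in the Cdkn2d window, and the median of all windows was 7. Of the 6 genes, 5 had a window in this table.

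The values are log2 levels from the RMA method, so a difference of 1 is a 2-fold difference. A change was called when limma's Benjamini-Hochberg adjusted p over all 45037 probe sets was under 0.05. Array medians were between 4.32 and 4.43, apart from 4.06 for Suv39h1- lymphoma 1032 under ADR. The tissue label was checked against B-lineage genes: the 6 measured averaged between 6.15 and 9.66 on single arrays. The lowest was Suv39h1- lymphoma 1032 under ADR, where macrophage markers averaged 6.79 and neutrophil markers 5.80. Markers of another cell type averaged higher than the B-lineage genes on some other arrays too. Among them were WT lymphomas 403 and 5560 under ADR, with 7.07 and 6.81 for B-lineage genes and 9.14 and 8.46 for fibroblast markers.

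Some arrays of the same culture differed in Xist, and some were alike across labels. Xist, an RNA made from the inactive X chromosome, differed on its brightest probe set by at most 2.11 within each of the 19 Suv39h1- and WT lymphomas. On its other 2 probe sets the largest gaps were 3.34 in Suv39h1- lymphoma 1032 and 2.95 in WT lymphoma 1570, against 6.75 in culture SuvER-4936 on each. In Suv39h1ER culture SuvER-4936 it was 6.27 with ADR 4OHT, 11.50 with ADR and 5.86 native, and in culture SuvER-4146 it was 6.11, 9.06 and 9.60 in the same order. Culture SuvER-5043 stayed between 6.18 and 6.64. Whether the arrays of cultures SuvER-4936 and SuvER-4146 come from 1 lymphoma each was not tested. Arrays of the WT lymphomas numbered 2949, 5043, 5766 and 6054 had correlations of 0.93 to 0.98 across labels (Spearman, over 45 probe sets for immunoglobulin V genes, Xist and Y-linked genes), as closely as arrays of the same lymphoma (0.88 to 0.98), and Suv39h1- lymphomas 7890 and 9250 at 0.89 to 0.92. Other pairs of differently numbered WT lymphomas ranged from 0.48 to 0.98 (median 0.85), so at least 1 such pair was as alike. Other such Suv39h1- pairs ranged from 0.54 to 0.85 (median 0.69).

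**Figure D1:**
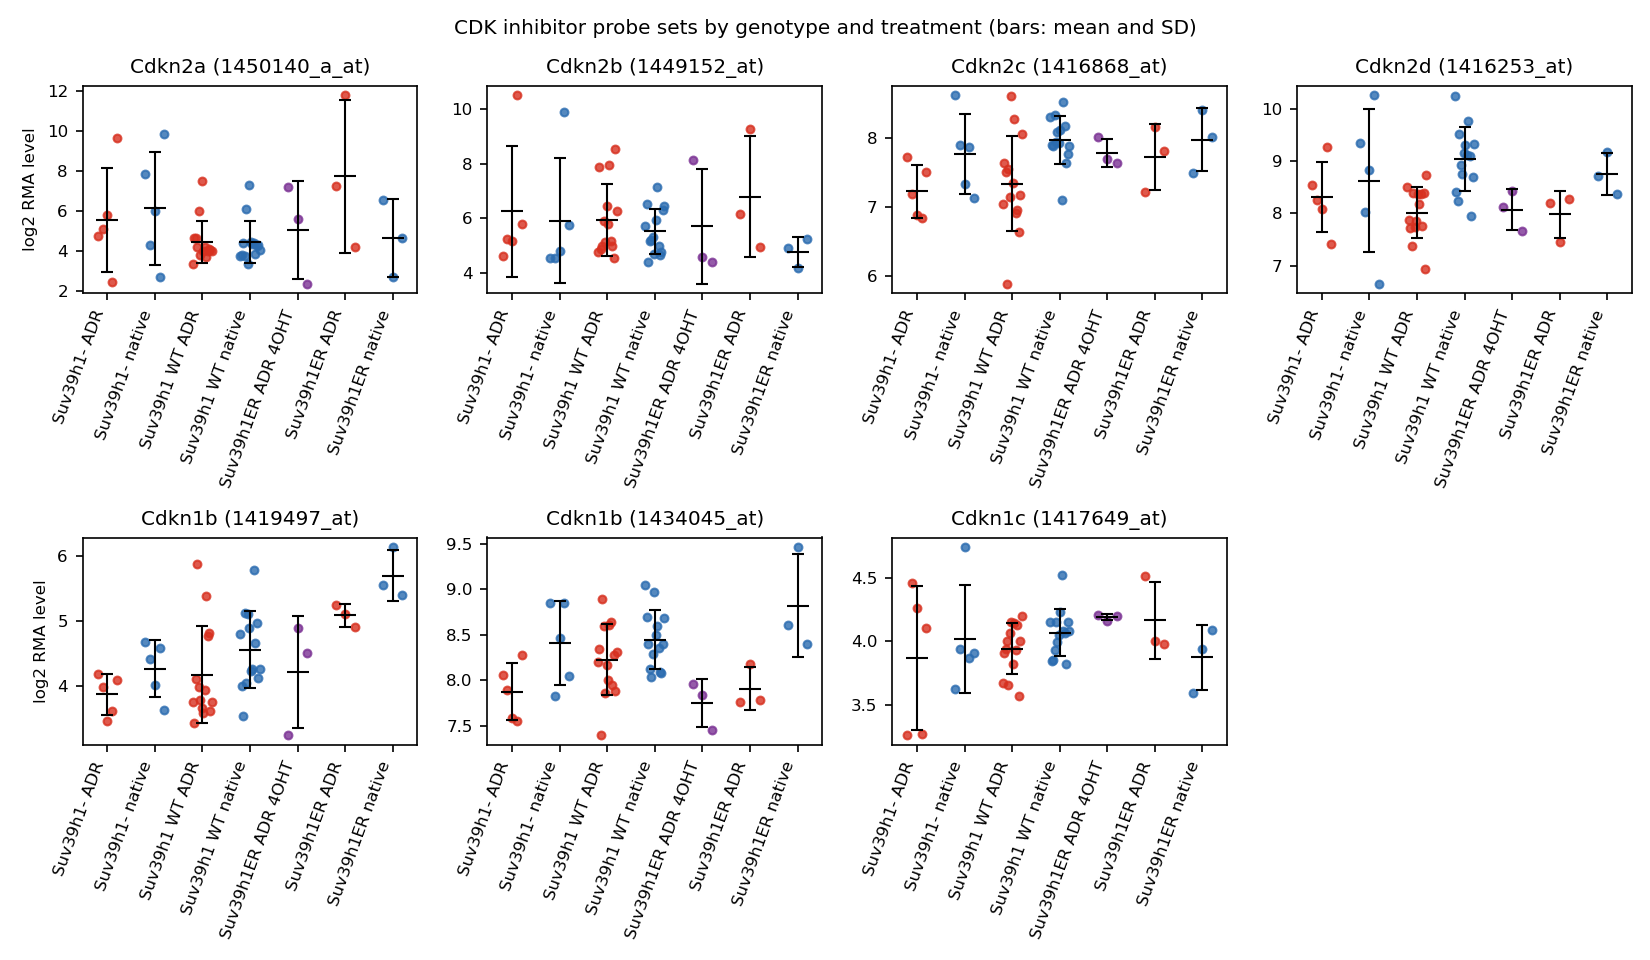
Level (log2 RMA) of each CDK inhibitor probe set on every array, in 7 panels with the 7 groups along the horizontal axis. Points are arrays and bars the mean and SD; Cdkn2a and Cdkn2b spread most, while Cdkn1c stayed between 3.27 and 4.74.

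In WT lymphomas, Cdkn2a covered nearly the same range with ADR and native. In WT lymphomas under ADR the lowest level was 3.33, the median 4.08 and the highest 7.49, against 3.33, 4.25 and 7.31 native. Of the 14 native WT lymphomas, 12 lay at or below 4.45, about the array medians or under them, and lymphomas 3594 (6.07) and 403 (7.31) stood above them. The same 2 lymphomas were highest under ADR, at 5.97 and 7.49.

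The 5 Suv39h1- lymphomas covered a wider range. Under ADR, Cdkn2a was 2.44 in lymphoma 1032, 9.63 in 4936, 4.74 in 5783, 5.08 in 7890 and 5.77 in 9250. Native levels in the same order were 2.70, 9.83, 7.82, 4.29 and 5.99. Lymphoma 4936 was the highest and 1032 the lowest with either treatment, and the ranges with and without ADR overlapped. The SD of Cdkn2a between lymphomas was 2.61 under ADR and 2.82 native in Suv39h1-, against 1.07 under ADR and 1.04 native in WT. The SD of the median probe set was 0.31 and 0.28 in the Suv39h1- groups and 0.22 and 0.20 in the WT groups, and Cdkn2a stood at the 97.8th percentile or higher in each of the 7 groups. Without lymphoma 403 the WT SDs were 0.64 under ADR and 0.65 native, and without lymphoma 4936 the Suv39h1- SD under ADR was 1.44.

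**Figure D2:**
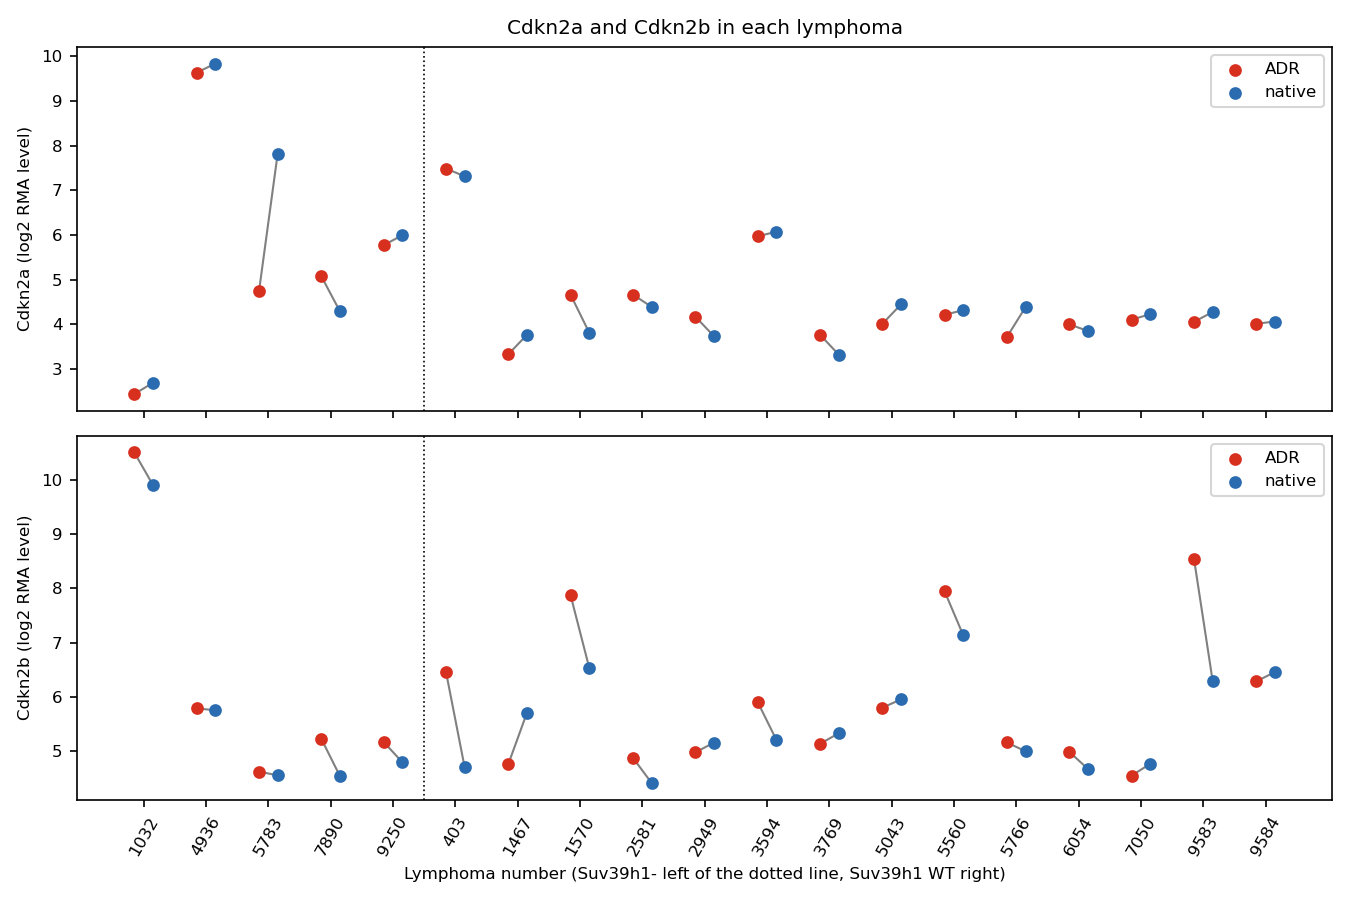
Cdkn2a (top) and Cdkn2b (bottom) log2 levels in each of 19 lymphomas, with ADR and native joined by a line. Suv39h1- lymphoma 1032 has the lowest Cdkn2a and the highest Cdkn2b, and WT lymphomas 403 and 3594 stand above the other 12 in Cdkn2a.

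Cdkn2b, the neighbour of Cdkn2a, also differed widely. Suv39h1- lymphoma 1032, with the lowest Cdkn2a, had 10.50 under ADR and 9.90 native, whereas the other 4 Suv39h1- lymphomas lay between 4.63 and 5.79 under ADR and between 4.55 and 5.76 native. WT lymphomas ranged from 4.56 to 8.55 under ADR (median 5.49) and from 4.42 to 7.14 native (median 5.28). WT lymphomas 9583 (8.55), 5560 (7.95) and 1570 (7.87) were the highest under ADR.

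Across the 14 native WT lymphomas, Cdkn2a was set against 7 other measures. Native Cdkn2a followed its own level under ADR (Pearson r = 0.93, permutation p = 0.0011, adjusted 0.0076; Spearman rho = 0.46, p = 0.099, adjusted 0.56). This rested on lymphomas 403 and 3594: without them r was 0.26 (permutation p = 0.42, n = 12). With the 4 alike lymphomas averaged (n = 11), r was 0.95 (permutation adjusted p = 0.0063) and rho was 0.84 (adjusted p = 0.017). None of the other 6 relations passed. Native Cdkn2a against native Cdkn2b gave r = -0.27 (adjusted p = 0.60, permutation test) and rho = -0.20, and against native Mtap, a gene 93383 bases from Cdkn2a, r = -0.33 (adjusted p = 0.60) and rho = -0.32. Native Mdm2, native Cdkn1a (p21, a p53 target) and the ADR changes of Cdkn1a and Mki67 (a proliferation marker) gave r between -0.29 and 0.21.

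The genes whose native WT levels were most like Cdkn2a were Gal3st1 (r = 0.92), G530011O06Rik (0.92), Eif2s3y (0.91), Ffar4 (0.91) and Zfp503 (0.90), over 14 lymphomas. Leaving out the 2 lymphomas with the highest Cdkn2a brought these to between 0.43 and 0.63. In the same lymphomas under ADR, r was -0.01 for Gal3st1, 0.19 for Ffar4 and between 0.61 and 0.79 for the others. Eif2s3y is Y-linked. Over all 47 arrays, Cdkn2d was most like Narf (0.80), Cdkn2c most like Ckap2 (0.75) and Cdkn2b most like Tmem141 (0.77). These arrays share lymphomas and treatments. Over the WT arrays under ADR alone, r was 0.35 for Narf, 0.84 for Ckap2 and 0.55 for Tmem141.

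In WT lymphomas under ADR, Cdkn2d and Cdkn2c fell, and no other member was called. Of 7 probe sets, 2 were called, both lower, where 23.5% of all probe sets were called and 12.0% were called lower. Cdkn2d ranged from 6.93 to 8.73 under ADR (median 8.03), against 7.95 to 10.24 native (median 9.10). It was lower in 13 of 14 lymphomas, with lymphoma 7050 the exception. Its change was -1.02 (SE 0.17, n = 14 pairs, limma adjusted p = 8.3e-05), and an exact sign-change test of the 14 paired differences gave p = 0.00024 (two-sided, unadjusted). Fewer cells of a type and less RNA per cell cannot be told apart in such bulk samples.

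Cdkn2c ranged from 5.88 to 8.60 under ADR (median 7.25), against 7.10 to 8.51 native (median 7.93). It was lower in 11 of 14 lymphomas and higher in 403, 5560 and 9584. The change was -0.63 (SE 0.20, limma adjusted p = 0.023). That call was lost when lymphomas 2949 (adjusted p = 0.055) or 5766 (0.056) were left out, when the 4 alike lymphomas were averaged (change -0.39, adjusted p = 0.21) and when only the WT arrays were fitted (0.056).

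For Cdkn2a the change was 0.01 (SE 0.45, adjusted p = 0.99, limma), higher in 6 of 14 lymphomas. Its paired differences ranged from -0.67 to 0.85. The SE shares its spread with the Suv39h1ER arrays, and fitting only the WT arrays gave an SE of 0.10. Cdkn2b had a change of 0.42 (SE 0.35, adjusted p = 0.47), higher in 8 of 14, with 2.25 in lymphoma 9583, 1.76 in 403 and 1.34 in 1570. Cdkn1b had -0.38 (SE 0.16, adjusted p = 0.086) on 1419497_at and -0.22 (SE 0.14, adjusted p = 0.29) on 1434045_at, a brighter probe set (mean 8.26 against 4.43 over all arrays). The dimmer one was called without lymphoma 2581 (adjusted p = 0.040) or 2949 (0.026). Cdkn1c had -0.12 (SE 0.087, adjusted p = 0.37).

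Fibroblast markers moved in the same samples. Of 23 measured, 22 rose in WT lymphomas under ADR and none fell, and the list's mean ranged from 4.63 to 9.14 per array under ADR, against 3.88 to 5.05 native. Of 12 macrophage markers 8 rose, and of 8 neutrophil markers 2. Of the 6 B-lineage genes 2 fell and none rose (median change -0.49, against -0.01 over all probe sets). The part of the macrophage, neutrophil and B-lineage changes in the falls of Cdkn2c and Cdkn2d was not tested. The lymphomas with the largest fibroblast changes, 403 (4.45) and 5560 (4.16), were 2 of the 3 in which Cdkn2c was higher. The other, 9584, had 0.95, and Cdkn2c was lower in 3594 (2.89), 3769 (2.86) and 2581 (2.81). Per unit of fibroblast change, Cdkn2c differed by 0.40 (95% interval 0.11 to 0.69, limma adjusted p = 0.067). That slope was not called, and its cause was not tested. With that change as a covariate, Cdkn2c was -1.41 and Cdkn2d -1.24 (adjusted p = 0.015 for each). These are fitted values at no fibroblast change, where the lowest change observed was -0.07, in lymphoma 1467.

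In Suv39h1- lymphomas no member was called, where 0.00666% of all probe sets (3) were called and 5126 had an unadjusted p under 0.05 (limma). Cdkn2a had a change of -0.60 (SE 0.75, adjusted p = 0.82), with -3.08 in lymphoma 5783 and between -0.26 and 0.79 in the others. Cdkn2b was higher in 5 of 5, by 0.04 to 0.69 (mean 0.35, exact sign-change p = 0.0625, the smallest 5 pairs allow). Cdkn2d had -0.31 (SE 0.29, adjusted p = 0.74), Cdkn2c -0.54 (SE 0.34, adjusted p = 0.57) and Cdkn1b -0.53 on 1434045_at (SE 0.23, adjusted p = 0.37). Of the 23 fibroblast markers none was called in these lymphomas.

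The ADR responses of the genotypes were compared directly. None of the 7 probe sets was called, where 0.0688% of all probe sets were. The nearest was Cdkn2d, whose change was -0.31 ± 0.76 in Suv39h1- and -1.02 ± 0.67 in WT (SD, n = 5 and 14 pairs), a difference of 0.71 with a 95% interval of 0.01 to 1.41 (limma adjusted p = 0.30). For Cdkn2a the difference was -0.61 with an interval of -2.42 to 1.20, and the other probe sets differed by between -0.31 and 0.09.

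**Figure D3:**
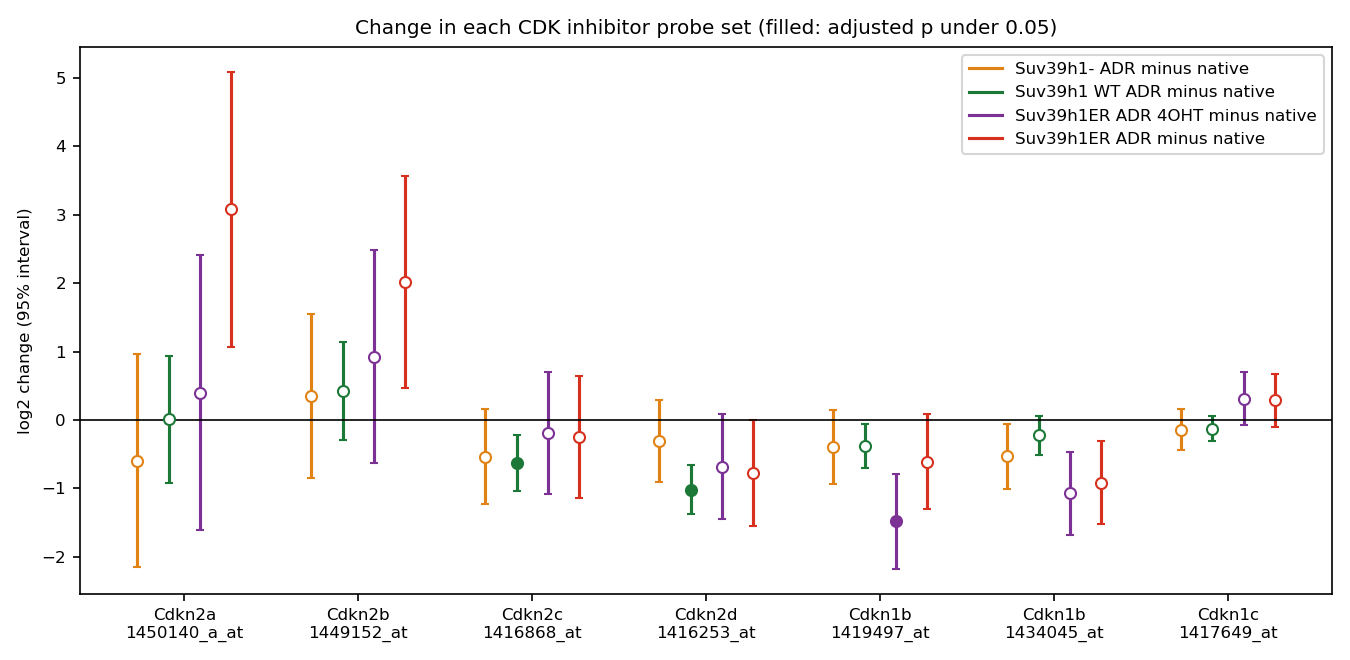
Change (log2, with 95% intervals from the fit) of each probe set in 4 comparisons against native. Filled points are called: Cdkn2c and Cdkn2d in WT under ADR, and Cdkn1b 1419497_at in Suv39h1ER under ADR 4OHT.

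Between genotypes, no member was called in native cells (2.16% of all probe sets called) or under ADR (9.75%). Native Cdkn2a averaged 6.13 ± 2.82 in Suv39h1- and 4.43 ± 1.04 in WT (SD, n = 5 and 14), a difference of 1.70 (SE 0.80, limma adjusted p = 0.40; exact permutation p = 0.086, two-sided). Single lymphomas set its size: 0.77 without Suv39h1- lymphoma 4936 and 2.56 without 1032 (adjusted p = 0.065). Under ADR the difference was 1.09 (SE 0.76, limma adjusted p = 0.38), with 0.065 without 4936 and 1.86 without 1032 (adjusted p = 0.088). The other probe sets differed by between -0.41 and 0.38 in native cells and between -0.35 and 0.32 under ADR. The mean of the fibroblast markers under ADR had a median of 4.35 in Suv39h1- and 6.36 in WT. Its part in the differences under ADR was not tested.

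In the 3 Suv39h1ER cultures, Cdkn2a turned on 1 array. It was 7.20, 7.22 and 6.57 in culture SuvER-4146 with ADR 4OHT, with ADR and native, and 2.36, 4.19 and 4.66 in culture SuvER-5043 in the same order. In culture SuvER-4936 it was 5.57, 11.76 and 2.70. The ADR array of culture SuvER-4936 was the highest of all 47 for Cdkn2a, was also high in Cdkn2b (9.26, against 4.60 with ADR 4OHT and 4.17 native), and was the array on which Xist was 11.50. The labels also hold a Suv39h1- lymphoma numbered 4936, where Cdkn2a was 9.63 under ADR and 9.83 native. They likewise hold a WT lymphoma numbered 5043, where Cdkn2a was 4.01 under ADR and 4.45 native. Whether arrays with the same number share a source was not tested.

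**Figure D4:**
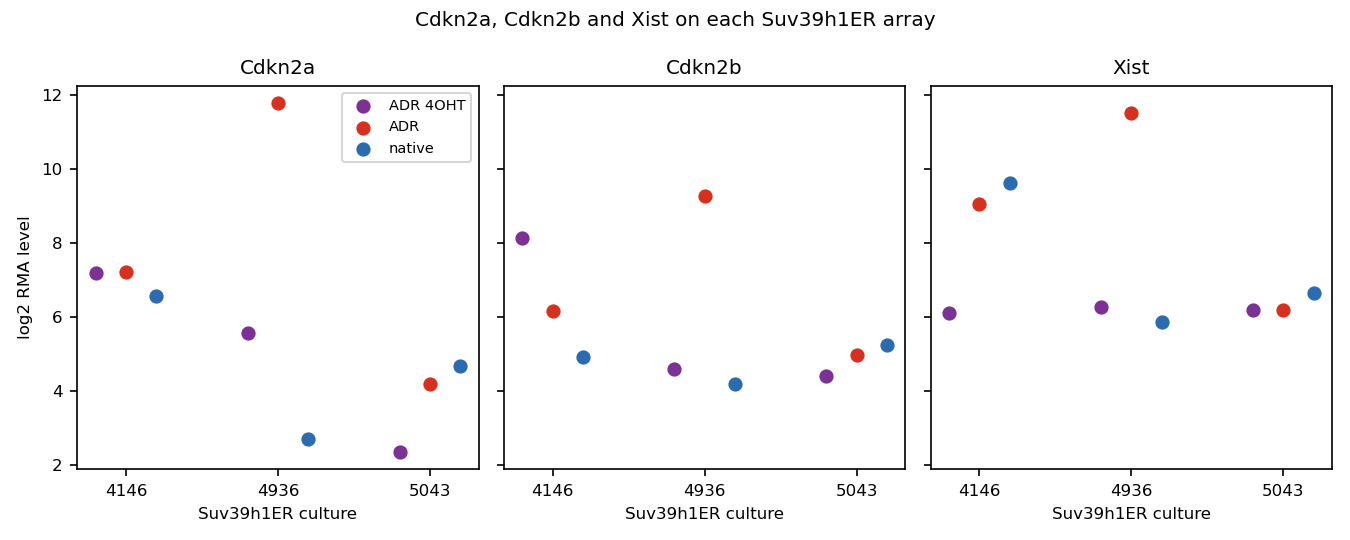
Cdkn2a, Cdkn2b and Xist (log2 RMA level) on each of the 9 Suv39h1ER arrays, by culture. On the ADR array of culture SuvER-4936 all 3 are highest, at 11.76, 9.26 and 11.50.

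With ADR alone against native, no member was called (0.377% of all probe sets called). Cdkn2a differed by 3.08 (SE 0.97, limma adjusted p = 0.16), by 0.09 without culture SuvER-4936, by 4.30 without SuvER-4146 and by 4.86 without SuvER-5043, the last called (adjusted p = 0.020). The limma SEs pool the spread over all arrays fitted, not over the Suv39h1ER cultures alone. The paired changes of Cdkn2a were 0.65, 9.06 and -0.47 in SuvER-4146, SuvER-4936 and SuvER-5043 (SD 5.21). An exact sign-change test of them gave p = 0.5, where the smallest possible was 0.25. Cdkn2b differed by 2.01 (adjusted p = 0.25), by 0.48 without culture SuvER-4936, by 2.40 without SuvER-4146 and by 3.16 without SuvER-5043 (adjusted p = 0.059). Cdkn2c, Cdkn2d and Cdkn1c differed by between -0.77 and 0.29. Between ADR 4OHT and ADR no member was called (0.755% called): Cdkn2a differed by -2.68 (SE 0.97, adjusted p = 0.20), by -0.93 without culture SuvER-4936 and by -4.01 without SuvER-4146. The other probe sets differed by between -1.09 and 0.09.

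With ADR 4OHT against native, Cdkn1b fell on 1 of its 2 probe sets, 1 of 7 where 1.78% of all probe sets were called and 0.937% were called lower. On 1419497_at it was 3.25, 4.89 and 4.52 with ADR 4OHT in cultures SuvER-4146, SuvER-4936 and SuvER-5043, against 5.56, 6.13 and 5.40 native. The change was -1.48 (SE 0.34, limma adjusted p = 0.022). On 1434045_at it was 7.96, 7.84 and 7.45 with ADR 4OHT, against 8.60, 9.46 and 8.39 native, a change of -1.07 (SE 0.29, adjusted p = 0.058). The call was lost without culture SuvER-4146 (-1.06, adjusted p = 0.19), without SuvER-4936 (-1.59, 0.099), with no replicate block (0.13), with only the arrays compared (0.19) and with the cultures as a random block (0.074), where 1434045_at was called instead (0.036). On 1434045_at the change was -1.29 without SuvER-4146 and -0.79 without SuvER-4936. In culture SuvER-5043, whose Xist was steady but whose number a WT lymphoma shares, the changes were -0.88 and -0.94. With ADR alone, Cdkn1b differed from native by -0.61 (adjusted p = 0.49) on 1419497_at and -0.91 (0.17) on 1434045_at. The other 5 members' probe sets differed between ADR 4OHT and native by between -0.68 and 0.93. Among them Cdkn2a differed by 0.40, by -0.84 without SuvER-4936 and by 0.28 without SuvER-4146. Cdkn2b differed by 0.93, by 1.18 without SuvER-4936 and by -0.21 without SuvER-4146.

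Genes that these inhibitors act on, or that are known to control them, were followed in WT lymphomas. Of 47 measured, 11 rose and 18 fell, and the other 18 were not called. Of all probe sets, 11.5% were called higher and 12.0% lower. With 1 probe set per gene, as used for the 47, 5489 of 18193 were called in either direction. The lists were chosen with earlier results of these data known. Of 10 CDK and cyclin genes, 7 fell and 2 rose. Ccna2 (cyclin A2, of S phase and mitosis) changed by -2.37, Cdk1 by -1.71, Cdk2 by -1.02 and Ccne1 (cyclin E1) by -0.85, each lower in at least 13 of 14 lymphomas. The D-type cyclins that pair with Cdk4 and Cdk6 were divided: Ccnd2 rose by 1.52 and Ccnd1 by 0.66, while Ccnd3 fell by 0.32. Ccnd1 was not called without lymphoma 403, 1467, 5043 or 5766 (limma adjusted p up to 0.055) or with the alike lymphomas averaged (0.18), nor Ccnd3 without 403 or 3769 (up to 0.056) or with no replicate block (0.17). With the fibroblast change as a covariate, none of the 3 was called (0.80 for Ccnd1, 0.20 for Ccnd2, -0.24 for Ccnd3). Of 8 pocket protein and E2F genes 3 fell, with changes of -1.34 for Rbl1 (p107), -0.98 for E2f2 and -0.41 for E2f4, while E2f1 had -0.33 (limma adjusted p = 0.073). Mki67 changed by -2.31.

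Of 5 genes for p27 turnover, Skp2 (-1.44) and Cks1b (-0.96), a subunit and a cofactor of the ubiquitin ligase that marks p27 for breakdown, fell, while its subunits Cul1 (0.24, limma adjusted p = 0.18) and Skp1 (0.11, 0.41) were not called. Mdm2 rose by 1.26 (12 of 14) and Cdkn1a by 1.11 (13 of 14), while Npm1, which holds Arf in the nucleolus, changed by -0.22. Of 14 genes known to control the Ink4a/Arf locus, 5 rose and 3 fell: Hmga2 by 2.98 and Ets2 by 1.09 were higher in 14 of 14, and the Polycomb genes Ezh2 and Suz12 changed by -1.26 and -0.65. Myc changed by -0.78 and Foxo3 by 0.44, while Foxo4 (-0.17, limma adjusted p = 0.41) and Foxo1 (0.012, 0.98) were not called. Mtap rose by 1.03 in 14 of 14 lymphomas and was called on 3 of its 4 probe sets; the neighbour Dmrta1 was not called (-0.05, limma adjusted p = 0.73). Of these genes beyond the D-type cyclins, with fibroblast change as a covariate, E2f4, Mdm2, Cdkn1a, Ezh2, Suz12, Foxo3 and Mtap were no longer called. Mdm2 was then 0.98 (SE 0.37, against 0.18 without it), Cdkn1a 0.93 (SE 0.34, against 0.20) and Foxo3 0.62 (SE 0.20, against 0.11). Ezh2 was -0.78, Mtap 0.54, Suz12 -0.39 and E2f4 -0.056. E2f2, Npm1 and Myc turned to changes near 0, and Hmga2 was called at 0.82. Cul1 (0.69, limma adjusted p = 0.042) and Foxo4 (-0.76, 0.0042) were called in that fit.

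**Figure D5:**
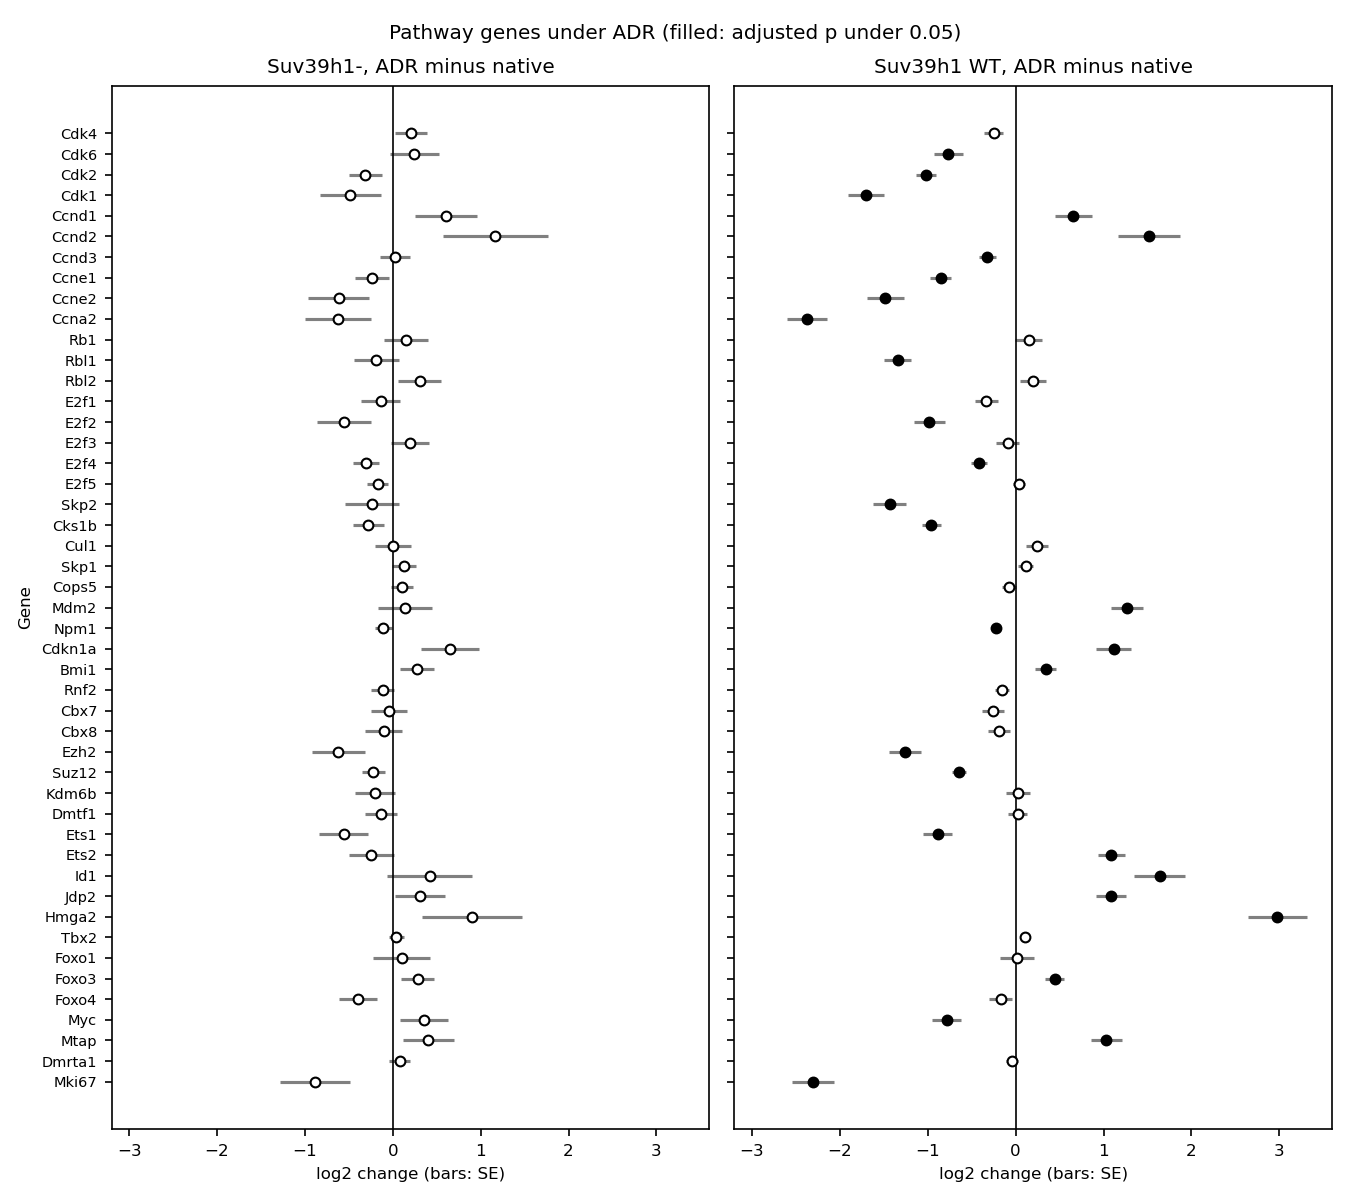
Change under ADR (log2, bars SE) of 47 pathway genes in Suv39h1- (left) and WT lymphomas (right). Filled points are called: none in Suv39h1- and 29 in WT.

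In Suv39h1- lymphomas none of the 47 genes was called (0.00666% of all probe sets called). Tested directly, the ADR response differed between Suv39h1- and WT in none of the 47 (0.0688% called). Under ADR, Suv39h1- was higher than WT in Ccna2 (1.66), Mki67 (1.496), Skp2 (1.37), Rbl1 (0.98) and Suz12 (0.62) and lower in Mdm2 (-1.07), Cdkn1a (-1.06), E2f5 (-0.90) and E2f4 (-0.60), 5 called higher where 4.45% of all probe sets were and 4 called lower where 5.30% were. Of these 9, leaving out 1 Suv39h1- lymphoma ended the call of Ccna2, Mki67, Rbl1, Suz12, Mdm2, Cdkn1a or E2f4 in at least 1 case. Cdkn1a lost its call in 14 of the 19 fits that left out 1 lymphoma of either genotype (limma adjusted p up to 0.14). The ADR groups also differed in markers of other cells. The mean of the fibroblast markers had a median of 4.35 in Suv39h1- and 6.36 in WT, and that of the macrophage markers 6.39 and 7.30. The part of this in the 9 differences was not tested. In native cells E2f4 (-0.71) and E2f5 (-0.69) were lower in Suv39h1-, 2 of 47 where 1.77% of all probe sets were called lower.

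In the Suv39h1ER cultures with ADR 4OHT against native, Rbl1 fell and Ets2 rose, 2 of 47 where 1.78% of all probe sets were called. Rbl1 changed by -1.43 (SE 0.33, limma adjusted p = 0.024) and Ets2 by 1.52 (SE 0.33, limma adjusted p = 0.019), each in 3 of 3 cultures. Neither was called with any 1 culture left out (Rbl1 -1.64 to -1.07, Ets2 1.31 to 1.68), with no replicate block (adjusted p = 0.057 and 0.21) or with only the arrays compared (0.18 and 0.15), nor Ets2 with a random block (0.13). None of the 47 was called with ADR alone against native, or with ADR 4OHT against ADR.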

How the data were processed

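Affymetrix arrays were deposited as log2 values; per the submitters' processing notes, R 3.5.0, the oligo package and RMA were used, and the values were log2 levels when deposited by the authors. Of 45101 probe sets, 64 controls were left out; no filter on level was set, so all 7 member probe sets were tested. Names came from the platform annotation: 34945 probe sets had 1 symbol, 932 several and 9160 none. By its _a_at suffix the Cdkn2a probe set can bind both transcripts, so Arf and p16Ink4a RNA cannot be told apart. limma 3.58.1 (R 4.3.3) fitted all 47 arrays with the 22 cultures as blocks; genotypes were compared over 19 arrays without a block. The pairing comes from the lymphoma numbers and the study's design of matched pairs; same-numbered arrays deviated together (r over 0.1) in 5 of 5 Suv39h1- lymphomas, 10 of 14 WT lymphomas and 2 of 9 Suv39h1ER pairs. For other genes the probe set with the highest mean was used, whereas the shares called are over all probe sets. Between genotypes under ADR, 2292 of 18193 were called with 1 probe set per gene. Permutation tests used 100000 resamples or every arrangement (scipy 1.17.1). Scripts were tested on simulated data. The number of arrays limits precision. The labels do not say that every number is a separate animal, so p-values measure the spread between these cultures. In the limma fit of all 47 arrays that spread is pooled over all groups. Members, gene lists and tests were chosen with earlier results of these data known. All member probe sets are named; of each pathway list, the 4 genes with the smallest p in WT are, plus Cdkn1a, Mdm2, Mki67, Mtap and Myc. Ccnd1, Ccnd2, Ccnd3 and E2f5 were named after their values were seen.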

Additional observations from a re-analysis of the deposited data

Results flagged for a closer look

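Groups of 5 lymphomas were searched for 1 value far from the other 4, and 4 of 21 groups had one. Chance gives about 1 in 20 for a single group. The groups reuse the same 5 Suv39h1- lymphomas, and Cdkn2b in lymphoma 1032 is counted both under ADR and native. The count therefore cannot be set against that rate. Cdkn2b in Suv39h1- lymphoma 1032 was 10.50 under ADR, where the others reached at most 5.79, and 9.90 native, where they reached at most 5.76. Cdkn1c in native Suv39h1- lymphoma 9250 was 4.74, above 3.62 to 3.94 in the others. The ADR change of Cdkn2a in Suv39h1- lymphoma 5783 was -3.08, while the others lay between -0.26 and 0.79.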

How the results depend on the processing

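In WT lymphomas under ADR, 2 member probe sets were called; 1 was called with the alike lymphomas averaged and with only the arrays compared, and between 1 and 3 when each lymphoma was left out. With ADR 4OHT against native, 1 was called; 2 were called with dim probe sets left out, with quantile normalization and with median centring, and 0 with no replicate block and with only the arrays compared. Leaving out each Suv39h1ER culture gave 0 or 1 there and 0 or 1 for ADR against native. Dropping the pairing block changed no other count of member calls; with the cultures as a random block, Cdkn1b was called there on the other probe set, 1434045_at (adjusted p = 0.036), and not on 1419497_at (0.074). The WT change of Cdkn2a was -0.00525 under quantile normalization, -0.018 with the fibroblast covariate and between -0.051 and 0.066 with each lymphoma left out; with that covariate Cdkn2b was -0.13, E2f2 0.016, Npm1 0.010 and Myc 0.050. Foxo1 was -0.00044 with median centring and between -0.091 and 0.11 with each lymphoma left out. With each Suv39h1ER culture left out, ADR 4OHT against native lay between -0.84 and 1.75 for Cdkn2a and between -0.21 and 1.82 for Cdkn2b. In Suv39h1- lymphomas the Cdkn2a change lay between -0.94 and 0.026, and its difference from WT between -0.95 and 0.013. The SD of Cdkn2a lay between 0.64 and 1.11 in WT ADR and 0.65 and 1.08 in WT native, 1.44 and 3.01 in Suv39h1- ADR, 1.15 and 3.42 in Suv39h1ER ADR 4OHT, and 2.14 and 5.36 in Suv39h1ER ADR. The correlation of native Cdkn2a with native Cdkn2b was 0.069, and with Cdkn2a under ADR 0.26, without the 2 lymphomas farthest from the median; with the alike lymphomas averaged it was 0.016 for native Mdm2 and -0.082 for the Cdkn1a change. Over all members and comparisons, 14 of 460 values changed sign under these settings and 43 of 595 with a lymphoma left out; the causes were not tested. Counts over all probe sets moved too. Under ADR against native, 10583 were called in WT (range over settings 3635 to 10874), 3 in Suv39h1- (0 to 231) and 170 in Suv39h1ER (1 to 750). With ADR 4OHT, 801 were called against native (0 to 981) and 340 against ADR (0 to 527). Between genotypes, 31 were called for the response (0 to 251), 974 in native cells (198 to 1455) and 4390 under ADR (1795 to 6944). Dim probe sets and the number of cultures limit what could be called.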
